A study of Mus musculus with 38 samples.

Results

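Whole retina from mice heterozygous for Kdm3b at 12 months of age was compared with wild type retina of the same age, in 3 bulk RNA libraries per genotype. These are 6 of the 15 bulk RNA libraries in the deposited table and 6 of the 38 samples of the series. Counts were scaled with median-ratio size factors, which set the typical transcript equal between libraries. A transcript was kept when its mean over the 6 libraries was 50 CPM or more (CPM, its count relative to the scaled library total). That left 4040 of the 142699 Ensembl transcripts in the table, or of the 89212 with a count in at least 1 of the 6 libraries, and they are called the abundant transcripts here. The labels name the genotypes as Kdm3b wild type and Kdm3b heterogeneous gene, with the titles giving Hetero for the second. The sources used here do not give the kind of allele, the mouse strain, the sex, or whether replicates are separate animals or pools. Sex and genotype therefore cannot be told apart, and p-values measure only how these libraries vary, which may be technical.

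KDM3B is an enzyme of the Jumonji family that takes methyl groups off lysine 9 of histone H3, a residue whose methylation marks silent chromatin. Animals with a single working copy of such a gene can have less of the enzyme in every cell. The retina is a thin sheet of nervous tissue in which rod photoreceptors are the most numerous cells, beside cones, interneurons, ganglion cells and Müller glia. A bulk library averages them all, so fewer cells of a type and less RNA per cell cannot be told apart.

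The files do not pair transcript identifiers with genes, and 0 of the 142699 identifiers matched a reference table. The level of Kdm3b, which would check the genotype labels, was therefore not read here. Markers of rods, cones, bipolar cells, Müller glia, pigment epithelium and lens could not be read either, so the tissue label was not checked. Each transcript below is known by its identifier alone, and nothing can be said of its function.

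Total expected counts ran from 9569310 in heterozygous replicate 3 to 32851550 in heterozygous replicate 1. In wild type they were 16009372, 9732316 and 9605173, and in heterozygous replicate 2 they were 10290014. Replicate 1 was thus the deepest library of both genotypes. The abundant transcripts held 65.1% to 68.2% of the counts of each library.

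Heterozygous replicate 3 stood apart from the other 5 libraries. Its Pearson correlations with them, over the log2(CPM + 1) of the abundant transcripts, were 0.362, 0.557 and 0.515 with the wild type replicates and 0.335 and 0.478 with heterozygous replicates 1 and 2. The other 10 pairs of libraries lay between 0.851 and 0.959. The closest pair was wild type replicates 2 and 3, at 0.959. The next closest crossed the genotypes, with 0.934 between the 2 deep libraries, wild type replicate 1 and heterozygous replicate 1. Heterozygous replicates 1 and 2 correlated at 0.871, within the range of the pairs that cross genotypes among those 5 libraries. Correlations here are across transcripts of the same annotation, which are not independent replicates.

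**Figure D1:**
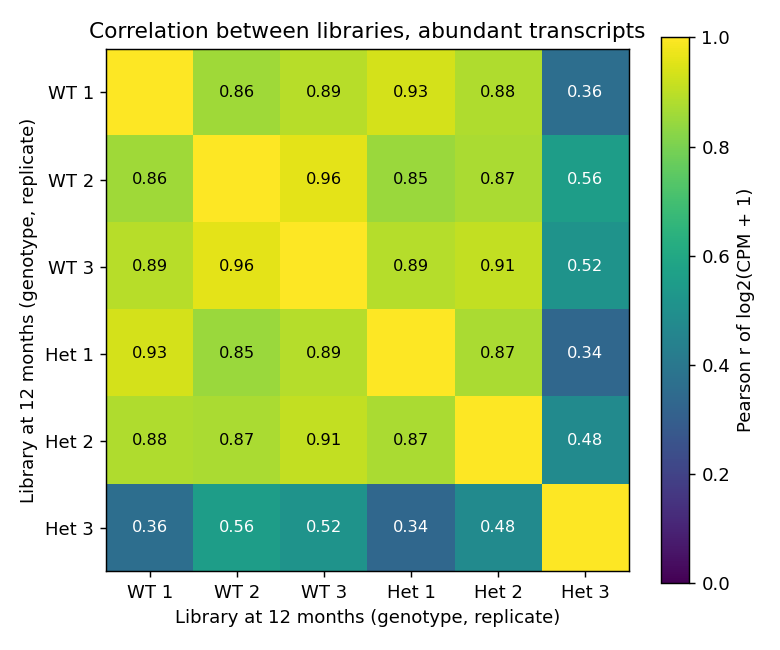
Pearson correlation between each pair of the 6 libraries, over log2(CPM + 1) of 4040 abundant transcripts. WT is wild type and Het heterozygous for Kdm3b, both at 12 months, with the replicate number. The row and column of heterozygous replicate 3 are at 0.335 to 0.557, against 0.851 to 0.959 for all other pairs.

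The departure of heterozygous replicate 3 was spread over many transcripts. In that library 34.4% of the abundant transcripts lay at least 2-fold from the median of the other 5 libraries, 470 above and 920 below. The same share was 0.619% to 3.46% in each of the other 5. It had 126 transcripts at least 8-fold below the others and 18 at least 8-fold above. It also had 0 counts for 44 abundant transcripts, whose median level in the other libraries was 96.1 CPM, while the other 5 libraries had 3 to 8 such zeros. Libraries of other ages shared this trait: 4 of those 9 had 46 to 110 of the same 4040 transcripts at 0, and the other 5 had 4 to 35. In heterozygous replicate 3, 125 abundant transcripts were at least 8-fold below the median of all the other bulk libraries. In the 9 libraries of other ages 2 to 118 were.

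High and low transcripts were both affected in that library. Among those of 50 to 100 CPM, 12.1% were at least 2-fold above the other libraries and 21.3% at least 2-fold below. Among the 57 transcripts of 1000 CPM or more, 26.3% were above and 19.3% below. The 10 most abundant transcripts, at means of 4769 to 20620 CPM, took 13.9% of its counts and 5.69% to 9.01% of those of the other 5 libraries. For 8 of these 10 it was the highest of the 6 libraries, and for 0 the lowest.

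**Figure D2:**
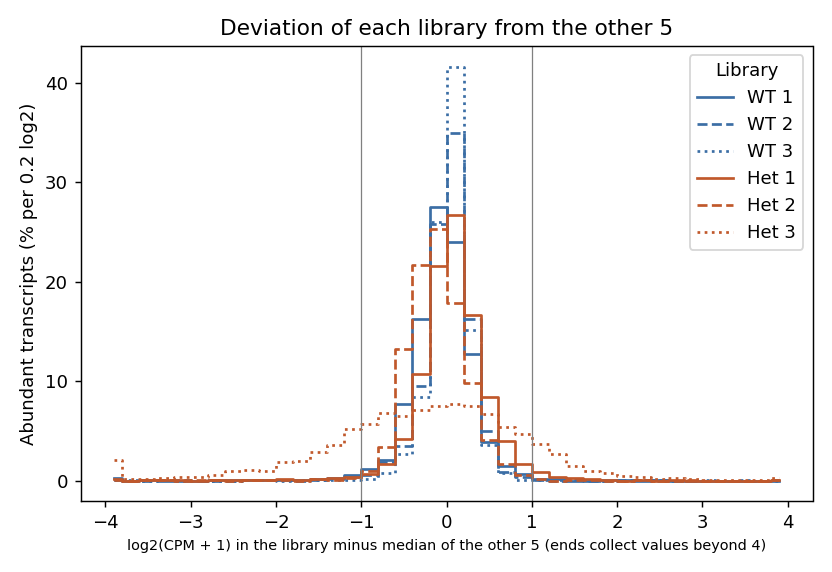
Distribution over 4040 abundant transcripts of the log2(CPM + 1) in 1 library minus the median of the other 5, in steps of 0.2, with grey lines at 2-fold. Heterozygous replicate 3 (dotted orange) is broad, with 34.4% of transcripts beyond 2-fold, and the other 5 libraries are narrow, with 0.619% to 3.46%.

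Transcripts whose expected counts are whole numbers in all 6 libraries, within 0.01, are taken here as those whose reads needed no sharing with another transcript. There were 223 among the abundant ones (5.52%). Over these 223, heterozygous replicate 3 correlated with the other libraries at 0.792 to 0.887, and the other pairs at 0.946 to 0.996. It was the lowest library in this set too, but the gap was smaller. Of the 44 transcripts at 0 in it, 0 had whole counts, and of the 126 at least 8-fold below, 1 had. The part that sharing of reads between transcripts has in these departures was not tested.

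The library also correlated less with the other ages of the series than the other 12-month libraries did. Its correlation with the 9 wild type libraries at 1, 6 and 18 months had a median of 0.397 and a highest value of 0.557. The medians of the other 5 libraries at 12 months were 0.724 to 0.813. The main counts over the 4040 and the 4 named transcripts are therefore given with and without it, and the shares over the whole table and the comparison with other ages with it only.

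Spread within the heterozygous group exceeded that in wild type. The standard deviation of the log2 level over 3 libraries had a median of 0.145 in wild type and 0.477 in the heterozygous group, and it was larger in the heterozygous group for 89.3% of the abundant transcripts. Heterozygous replicates 1 and 2 differed from each other by a median of 0.257 on the log2 scale, and each differed from replicate 3 by 0.787 and 0.743. Wild type replicates 1 and 2 differed by 0.234, replicates 1 and 3 by 0.203, and replicates 2 and 3 by 0.0896. The difference of heterozygous replicates 1 and 2 was thus close to that of wild type replicates 1 and 2, though larger than that of every wild type pair. The pairs with heterozygous replicate 3 differed most.

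The main question was which abundant transcripts differ between the genotypes. By edgeR's quasi-likelihood test with Benjamini-Hochberg adjustment over the 4040, 0 passed an adjusted p of 0.05 (0%), and the lowest adjusted p was 0.997. An unadjusted p under 0.05 was held by 71 (1.76%). That is below the fraction of 0.05 that a test gives where nothing differs, so 0 calls in this fit do not show that the genotypes are alike. Over the 36231 transcripts of the whole table that pass a filter on low counts, 0 passed as well and 1.41% had an unadjusted p under 0.05. DESeq2, run on the same 4040, had 312 at an unadjusted p under 0.05, above a fraction of 0.05. It called 10 (0.248%), with 8 higher (0.198%) and 2 lower (0.0495%). Of these 10, 8 had groups that did not overlap. The other 2, ENSMUST00000127786 and ENSMUST00000153883, were under 1 CPM in every wild type library and reached the 50 CPM minimum only through heterozygous replicates 2 and 3. They had to differ in order to be kept, and they are no support for a difference. Run on every transcript with a count, DESeq2 called 144 (0.164%), of which 2 were abundant, and these were the same 2. The other 8 calls were thus lost in that run. Among those 8, ENSMUST00000085018 and ENSMUST00000214343 had wild type means under 50 CPM and were kept through the heterozygous libraries, where they are higher. Calls by limma voom with library weights numbered 0, with 548 transcripts at an unadjusted p under 0.05, also above that fraction. The share with a low unadjusted p thus differed between the methods. Voom gave heterozygous replicate 3 a weight of 0.1, the lowest of the 6, and wild type replicate 3 the highest, 8.28. Replicate 1 also had a low weight in both genotypes, 0.515 in wild type and 0.492 in the heterozygous group. Replicate 2 had 4.53 in wild type and 1.05 in the heterozygous group.

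Leaving out heterozygous replicate 3 left the count of edgeR calls at 0 and changed the precision. The biological coefficient of variation that edgeR estimated, the typical relative spread between replicates, was 0.411 with all 6 libraries and 0.208 without this one. When any other library was left out it was 0.402 to 0.486. The median standard error of a log2 fold change was 0.291 with 6 libraries and 0.167 without heterozygous replicate 3. Transcripts with an unadjusted p under 0.05 then numbered 325 of 4074 tested, above a fraction of 0.05, with a lowest adjusted p of 0.6. They numbered 277 without heterozygous replicate 1, also above that fraction. Without heterozygous replicate 2 they numbered 97, and without wild type replicates 1, 2 and 3 they numbered 32, 18 and 21, all below it. On the same 4040 transcripts without heterozygous replicate 3, DESeq2 called 52 (1.29%), 39 higher and 13 lower, and 9 of its 10 calls from all 6 libraries were among them. These libraries are part of the same 6, so the repeat is no second test. The 9 include ENSMUST00000127786 (DESeq2 adjusted p 0.00103), which in that run is high in heterozygous replicate 2 alone. With limma voom the count was again 0, with 666 at an unadjusted p under 0.05, also above a fraction of 0.05.

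The intervals describe how precisely these libraries set the difference of each abundant transcript. With 6 libraries, 2254 of 4040 (55.8%) had a 95% interval of the log2 fold change that lay wholly inside 2-fold in either direction. Without heterozygous replicate 3 this held for 3646 of 4074 (89.5%). Leaving out any other single library gave 34.4% to 40.2%. The intervals were approximated from the F statistic of each transcript, and they hold for 1 transcript at a time. They measure only how these libraries vary, and heterozygous replicate 3 was singled out from the same data.

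**Figure D3:**
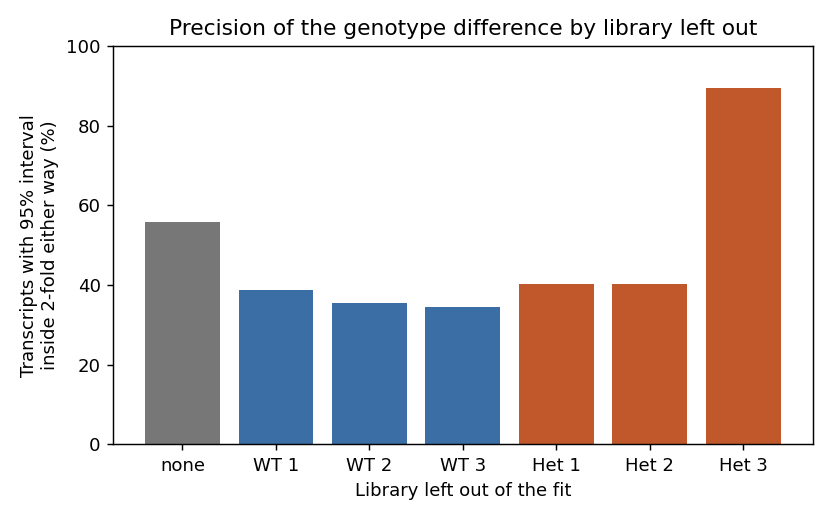
Share of the abundant transcripts (%) whose 95% interval for the heterozygous to wild type difference lies inside 2-fold either way, with no library left out (grey) and with each wild type (blue) or heterozygous (orange) library left out. The bar without heterozygous replicate 3 reaches 89.5%, against 55.8% with all 6 libraries.

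Most differences in mean level were small. The fitted log2 fold change, heterozygous minus wild type, had a median of -0.05, and 10% of transcripts lay below -0.35 and 10% above 0.44. A mean of 50 CPM or more in both genotypes was reached by 3620 transcripts, in wild type alone by 176 and in the heterozygous group alone by 244, with all 6 libraries. The transcript just inside the minimum had 44.3 CPM in wild type and 55.7 CPM in heterozygous retina, and the one just outside 42.7 and 57.3 CPM.

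Means at least 2-fold apart, on the log2(CPM + 1) scale, were found for 92 transcripts (2.28%), with 89 higher (2.2%) and 3 lower (0.0743%) in the heterozygous group. Over the filtered whole table the share was 7.3%. Heterozygous replicate 3 was the highest of the 6 libraries for 86 of the 89 that were higher. Without it, 6 of these 89 were still at least 2-fold higher and 23 had the opposite sign. In all, 25 transcripts were then at least 2-fold apart (0.619%), 13 higher and 12 lower. The excess of higher over lower transcripts at 2-fold thus rested on that library. A drop in that library alone cannot bring a mean of 3 libraries 2-fold down, while a rise can bring it 2-fold up. It was at least 2-fold below the others for 920 transcripts and above for 470, and such drops are largely missed by this count.

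**Figure D4:**
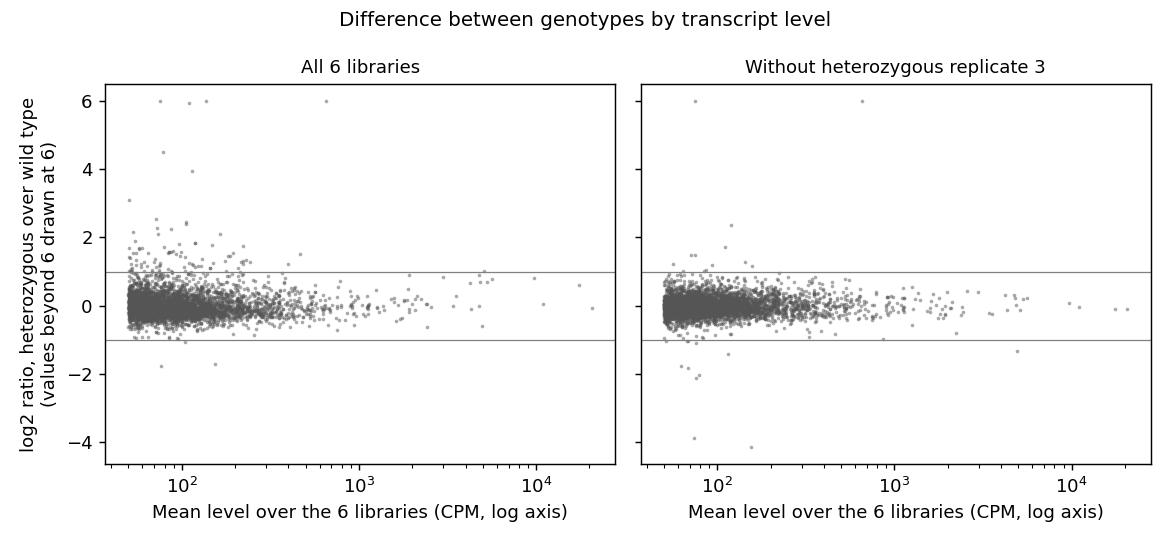
Log2 ratio of mean levels, heterozygous over wild type on the log2(CPM + 1) scale, against the mean level over the 6 libraries for 4040 abundant transcripts, with grey lines at 2-fold. With all 6 libraries (left) 89 points lie on or above the upper line and 3 on or below the lower, and without heterozygous replicate 3 (right) 13 and 12.

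Groups that did not overlap, with all 3 libraries of 1 genotype above all 3 of the other, were found for 422 abundant transcripts (10.4%), against 8.13% in the filtered whole table. Of these, 166 (4.11%) were higher and 256 (6.34%) lower in heterozygous retina. Groups of 3 libraries also separate often when genotypes do not differ, so this count does not show that they do. The differences were mostly small, with a median log2 ratio of 0.52 for the higher and -0.34 for the lower, and 21 of the 166 and 1 of the 256 reached 2-fold. Heterozygous replicate 3 was the most extreme library in 78.3% of the higher and 69.1% of the lower transcripts. Without it 1027 transcripts did not overlap (25.4%), 451 higher and 576 lower. A smaller group overlaps less often, so this count cannot be set against the first.

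The 9 wild type libraries of other ages show on which side of such a difference the rest of the series lies. For the 256 transcripts that were lower in heterozygous retina, the median of the other ages was nearer to the heterozygous median than to that of wild type at 12 months in 198 (77.3%). For the 166 that were higher it was nearer in 80 (48.2%), and over all 4040 in 1938 (48%). Among transcripts whose groups overlapped, it was nearer in 38% of those with a higher heterozygous median and 52.1% of those with a lower one. Among the 256, all 9 libraries of other ages lay below all 3 wild type libraries at 12 months for 71 (27.7%), and all 9 lay above all 3 heterozygous libraries for 5. Over all 4040, all 9 lay below wild type at 12 months for 161 (3.99%). Among the 166, all 9 lay above wild type at 12 months for 16 (9.64%, against 1.76% over all 4040) and below all 3 heterozygous libraries for 9. The 422 were chosen for wild type at 12 months lying at 1 end of the 6 libraries, so these shares are a description. The 50 CPM minimum was also set on those 6 libraries alone. Totals at the other ages were 17169188 to 19826893. Replicates 2 and 3 of both genotypes at 12 months are below that range and so is wild type replicate 1. Heterozygous replicate 1, at 32851550, is above it. The part of depth in these counts was not tested.

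The transcripts described next are the 2 higher and the 2 lower with the lowest unadjusted p among those whose groups did not overlap. They were chosen by these values, so their differences are a description. ENSMUST00000085018 was at 34.1, 64.7 and 43.8 CPM in wild type replicates 1 to 3 and at 117, 102 and 198 CPM in heterozygous replicates 1 to 3. Every heterozygous library was above the highest wild type library, and replicate 3 was the highest. The means were 47.6 ± 15.7 and 139 ± 52 CPM (SD, n = 3 each), and the log2 fold change was 1.55 (SE 0.368, 95% interval 0.65 to 2.44). The wild type mean is under the 50 CPM minimum, so the transcript was kept through the heterozygous libraries, where it is high. Its adjusted p in edgeR's quasi-likelihood test was 0.997, and in DESeq2 0.00767. Without heterozygous replicate 3 the log2 fold change was 1.18 (edgeR adjusted p 0.604), and DESeq2 called it (adjusted p 0.00343). With DESeq2 on every transcript it did not pass (adjusted p 0.608).

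At other ages, with all 15 libraries scaled together, ENSMUST00000085018 ranged from 9.18 to 42.5 CPM at 6 months and from 14.6 to 34.8 CPM at 18 months. At 1 month it ranged from 56 to 141 CPM. The heterozygous libraries, at 105 to 200 CPM on that scale, were above 8 of the 9 libraries of other ages, and 1 library at 1 month lay within their range.

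ENSMUST00000193634 was at 62.5, 102 and 107 CPM in wild type and at 228, 210 and 154 CPM in heterozygous retina. The groups did not overlap, and here replicate 3 was the lowest heterozygous library. The means were 90.5 ± 24.4 and 198 ± 38.8 CPM (SD, n = 3 each), and the log2 fold change was 1.13 (SE 0.287, 95% interval 0.43 to 1.83). The adjusted p was 0.997 in edgeR and 0.00131 in DESeq2. Without heterozygous replicate 3 the log2 fold change was 1.25 (edgeR adjusted p 0.604, DESeq2 adjusted p 0.000106). It did not pass DESeq2 on every transcript (adjusted p 1). At other ages it ranged from 109 to 177 CPM at 1 month, 27.5 to 168 CPM at 6 months and 66.9 to 106 CPM at 18 months, and 2 of the 9 libraries of other ages lay within the heterozygous range.

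ENSMUST00000080666 was at 266, 306 and 299.6 CPM in wild type and at 191, 176 and 183 CPM in heterozygous retina. All heterozygous libraries, replicate 3 included, lay close together and below every wild type library of that age. The means were 290.5 ± 21.4 and 183 ± 7.57 CPM (SD, n = 3 each), and the log2 fold change was -0.66 (SE 0.169, 95% interval -1.07 to -0.26). The adjusted p was 0.997 in edgeR and 3.14e-05 in DESeq2. Without heterozygous replicate 3 the log2 fold change was -0.68 (edgeR adjusted p 0.604, DESeq2 adjusted p 4.66e-05). This call, too, was lost with DESeq2 on every transcript (adjusted p 0.985). At other ages wild type retina held 156 to 298 CPM, and 6 of those 9 libraries were above the heterozygous range and 3 below it.

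ENSMUST00000054867 was at 145, 145.5 and 135 CPM in wild type and at 82.1, 104 and 95 CPM in heterozygous retina. The groups did not overlap. The means were 142 ± 5.99 and 93.7 ± 11.1 CPM (SD, n = 3 each), and the log2 fold change was -0.60 (SE 0.178, 95% interval -1.03 to -0.17). The adjusted p was 0.997 in edgeR and 0.346 in DESeq2, and 0.604 and 0.199 without heterozygous replicate 3. At other ages wild type retina held 64.5 to 113 CPM, below all 3 wild type libraries at 12 months (133 to 145 CPM on the common scale). Of those 9 libraries 5 lay within the heterozygous range, so for this transcript the wild type group at 12 months was the one apart.

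**Figure D5:**
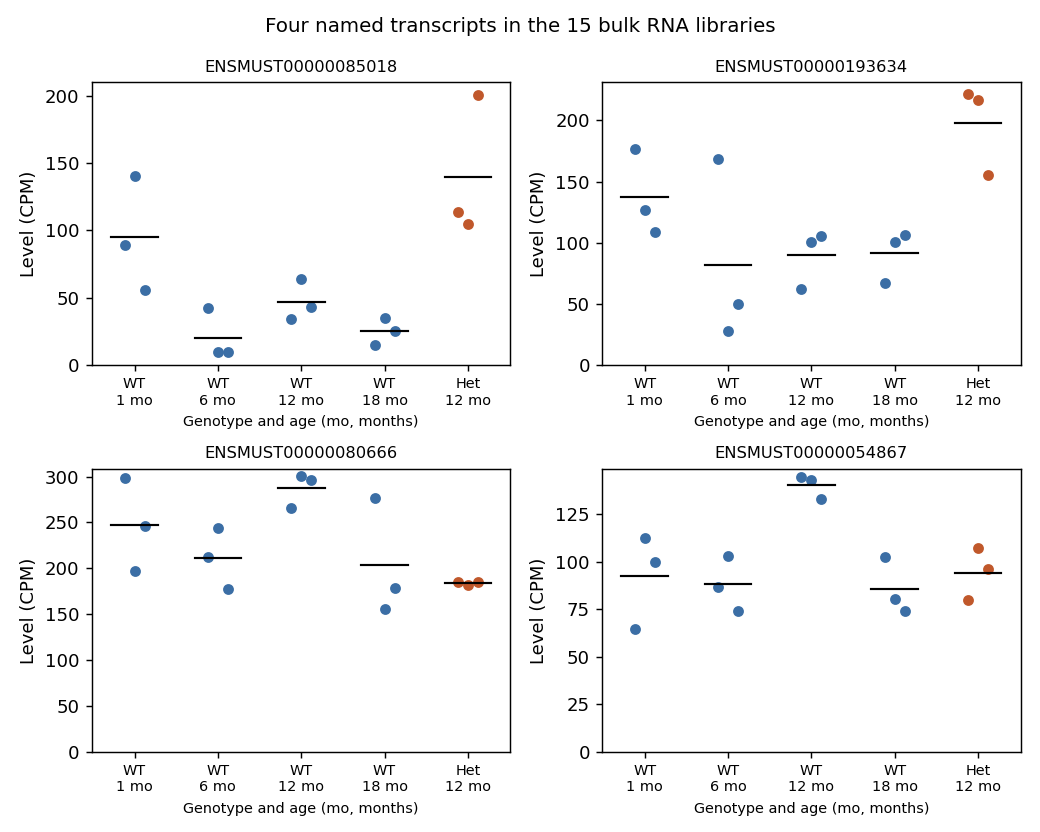
Level (CPM, all 15 libraries scaled together) of the 4 named transcripts in wild type retina at 1, 6, 12 and 18 months (blue) and heterozygous retina at 12 months (orange). Points are libraries and bars are means of 3. For ENSMUST00000085018 the heterozygous libraries are above 8 of the 9 wild type libraries of other ages, and for ENSMUST00000054867 the 12-month wild type libraries are above all 9.

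A pair of abundant transcripts, singled out after their values were seen, was at least 8-fold above the median of the other libraries in heterozygous replicates 2 and 3 and not in replicate 1. ENSMUST00000153883 was at 131 CPM in replicate 2 and 318 CPM in replicate 3. Replicate 1 held 0.097 CPM, and the highest wild type library at 12 months held 0.102 CPM. ENSMUST00000127786 was at 2841 and 1085 CPM in replicates 2 and 3 and at 0.355 CPM in replicate 1, within the wild type range of 0.312 to 0.868 CPM. The genotypes overlapped for both transcripts, with heterozygous replicate 1 at the wild type level. Both entered the abundant transcripts only through the 2 libraries where they are high, so their values are a description. Without replicate 3 both still had a higher heterozygous mean, through replicate 2 alone. In the 9 wild type libraries of other ages ENSMUST00000153883 reached at most 1.91 CPM and ENSMUST00000127786 at most 2.31 CPM.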

How the data were processed

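Expected counts per Ensembl transcript were deposited by the authors, not normalized. Per the submitters' processing notes the tools were edgeR 3.36.0, DESeq2 1.32.0, RSEM 1.3.3, STAR 2.7.1a, Trim Galore 0.6.6 and CASAVA, with the builds GRCm38 and mm10 and no roles. The sources used here give no annotation release or strand setting. Per the labels' protocols, libraries were made from polyadenylated RNA. Such counts share reads between overlapping transcripts, so a 0 can mean that reads went to another transcript.

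Counts were rounded, scaled (median ratio) and kept at a mean of 50 CPM or more over the 6 libraries. The test was edgeR's quasi-likelihood test (4.0.16, R 4.3.3, robust) on these 6 libraries without a replicate block, with Benjamini-Hochberg adjustment over all kept transcripts and a threshold of 0.05. DESeq2 (1.42.0), limma voom (3.58.1), other filters, TMM scaling, a fit of all 15 libraries and leaving out each library were alternatives. The test was tried on simulated data. Log2 ratios of means and correlations used log2(CPM + 1). The transcripts named are, among those with non-overlapping groups, the 2 higher and 2 lower with the lowest p. The comparison and rules were chosen with earlier results of these data known. Gene lists, Kdm3b and gene sums could not be run. No 2 libraries of a group agreed within counting noise: the closest pair, wild type replicates 2 and 3, differed by 13.3 times the counting variance.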

Additional observations from a re-analysis of the deposited data

How the results depend on the processing

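The count of transcripts called was 0 in 19 of 23 alternatives, among them TMM scaling, minimums of 10 and 200 CPM, the low-count filter on the whole table, no filter, all 15 libraries in the fit, replicates 2 and 3 only, a depth term and whole counts only. Leaving out each library in turn gave 0 to 0. DESeq2 called 10 of the abundant transcripts, and 144 when run on every transcript with a count, of which 2 were abundant, and 52 without heterozygous replicate 3. The cause was not tested. The replicate block gave 1 call, ENSMUST00000153883 (edgeR adjusted p 0.0361), which was high in heterozygous replicates 2 and 3 only and reached the 50 CPM minimum only through them, so this call is no support for a difference. Replicate numbers could not be shown to pair libraries: deviations of same-numbered libraries from their group means correlated at 0.469, -0.300 and 0.193, and 1 of 3 heterozygous libraries correlated best with its own number.

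Non-overlapping groups numbered 1297 with a minimum of 10 CPM and 51 with 200 CPM, where more and fewer transcripts were counted. They numbered 1703 with replicates 2 and 3 only and 1027 without heterozygous replicate 3, where fewer libraries have to separate. Transcripts at least 2-fold apart numbered 25 without that library. Of 85 values of the 4 named transcripts, 79 stayed on the same side of the threshold, 6 came to pass it, all with DESeq2, and 0 changed sign. Their log2 fold changes ran from 1.16 to 1.83 for ENSMUST00000085018, 0.79 to 1.33 for ENSMUST00000193634, -0.77 to -0.58 for ENSMUST00000080666 and -0.68 to -0.51 for ENSMUST00000054867, and the highest adjusted p was 1 for each. DESeq2 on every transcript, the depth term, the fit without robust moderation, the counts at 2-fold and the settings that keep the transcripts while leaving out heterozygous replicate 3 were added after the data were seen. Sums per gene were not run, since identifiers were not paired with genes.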
